A study of Mus musculus with 6 samples.

Results

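The genes described here are 33 interferon-stimulated genes of the mouse, without the OAS family, taken by symbol from a list. The list was chosen with earlier results of these data known. All 33 were found among the 24062 gene symbols of the count table, and all 33 passed the filter on low counts, with 748 to 52340 reads per gene and library. They were compared between Kit-positive bone marrow cells of Ints11 KO mice and of WT littermates, 3 mice of each genotype on the C57BL/6 strain and 1 mouse per library. KO mice carried floxed Ints11 alleles (labelled Ints11 flox/fox) and the Mx1Cre transgene, in which an interferon-responsive promoter that is not limited to blood cells drives the recombinase. The labels do not say whether WT littermates carried the transgene or floxed alleles. The labels give 1 treatment for both genotypes, an injection of poly(I:C) 4 days before sorting. No untreated mice were analysed, so the size of the interferon response itself was not measured, only its difference between genotypes.

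Poly(I:C) imitates viral RNA and is sensed by TLR3 in endosomes and by RIG-I-like receptors in the cytoplasm, which leads to secretion of type I interferon. The interferon binds the receptor IFNAR1/IFNAR2, the kinases JAK1 and TYK2 phosphorylate STAT proteins, and these join IRF9 to form ISGF3, the factor that binds interferon-stimulated response elements (ISREs) in promoters. In bone marrow, interferon drives dormant blood stem cells into division, and the response is normally shut off within days by feedback proteins such as USP18 and SOCS1. The Mx1Cre system uses the same response, so every mouse in which Cre is induced has been exposed to interferon.

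A core of the ISRE was found in promoters of 14 of the 24 members that could be searched. Stretches from the promoters of 7 of these 14 are shown. Those of Ifit1, Isg15 and Rsad2 belong to 3 genes that varied between mice of the same genotype. Those of Gbp3, Gbp7, Bst2 and Trim30a belong to 4 genes that were lower in KO libraries. Each runs 5′ to 3′ on the gene's strand, and capitals mark each copy in the stretch of the ISRE core, GAAA and GAAA with 2 bases between them, on either strand (a copy on the other strand reads TTTC, 2 bases, TTTC). Sequences are from RefSeq on GRCm38.p6. The Trim30a stretch is at a start site inside the annotated gene (104409025 to 104465193), and its copy lies just after that start site. A copy at position -36 of a start site further upstream was also found and is not shown.
Ifit1 (chr19:34640779-34640838, forward strand): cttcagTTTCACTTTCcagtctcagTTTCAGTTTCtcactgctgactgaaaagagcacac
Isg15 (chr4:156200850-156200909, reverse strand): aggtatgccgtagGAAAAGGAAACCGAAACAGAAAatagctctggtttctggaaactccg
Rsad2 (chr12:26456538-26456597, reverse strand): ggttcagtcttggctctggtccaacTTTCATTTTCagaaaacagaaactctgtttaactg
Gbp3 (chr3:142559980-142560039, forward strand): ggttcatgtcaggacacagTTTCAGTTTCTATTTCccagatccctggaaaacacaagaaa
Gbp7 (chr3:142530258-142530317, forward strand): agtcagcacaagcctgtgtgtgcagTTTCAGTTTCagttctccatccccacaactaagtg
Bst2 (chr8:71537562-71537621, reverse strand): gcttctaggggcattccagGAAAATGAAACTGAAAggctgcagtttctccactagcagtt
Trim30a (chr7:104446089-104446148, reverse strand): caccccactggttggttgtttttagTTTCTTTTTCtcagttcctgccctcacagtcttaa

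Promoter windows (250 bases before to 50 bases after a start site) were found for 24 of the 33 members. The ISRE core was in a window of 14 of these 24 genes (58.3%), against 3.99% of all genes with a window. A STAT site, TTCNNNGAA, was in 7 of the 24 (29.2%), against 9.55% of all genes with a window, and in 2 members a copy of each motif overlapped. The 10 members without a core in the window were Ifit2, Isg20, Irf7, Irf9, Ifi44, Xaf1, Ifi35, Samd9l, Cmpk2 and Herc6. Mx1, Mx2, Usp18, Zbp1, Rtp4, Ifi27l2a, Dhx58, Parp14 and Ifi204 had no window to search. The median log2 change between genotypes was -0.17 over the 14 members with it and -0.21 over the 10 without.

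Total counts were between 124074531 and 166860739 per library. Ints11, listed under its older symbol Cpsf3l, was at 73.8, 92.3 and 78.9 CPM (reads relative to the library total after TMM scaling) in the WT libraries. It was at 64.3, 58.3 and 60.2 CPM in the KO libraries (log2 change -0.42 ± 0.10, SE, adjusted p = 0.0174 in edgeR's quasi-likelihood test). The call was lost without KO_340, without KO_345 and in the fit with a mature neutrophil term. Kit was among 10 progenitor markers used to check the cell label, and all were detected. Their summed level was 1182 to 1322 CPM in WT and 1147 to 1255 CPM in KO libraries. Myb, which was not called, makes the largest part of that sum, at 650 to 791 CPM in WT and 547 to 656 CPM in KO libraries. Of the 10 progenitor markers 5 rose and 2 fell, so the sum does not show how the other markers changed. Summed marker levels of other cells differed between genotypes, though not every marker in a list was called. The 14 mature neutrophil markers summed to 12664 to 39640 CPM in WT and 47331 to 61942 CPM in KO libraries, and none was at 0. Of these 14 markers 4 rose with all 6 libraries, and all 14 without WT_341. The 8 monocyte markers summed to 1540 to 1784 CPM in WT and 977 to 1031 CPM in KO libraries. Ly6c2 makes most of that sum, at 1014 to 1374 CPM in WT and 788 to 860 CPM in KO libraries. It is also an interferon-stimulated gene of the further list below. Csf1r is in both the progenitor and the monocyte list. The 8 markers of plasmacytoid dendritic cells, which make much interferon, summed to 70.0 to 76.6 CPM in WT and 77.2 to 95.9 CPM in KO libraries. Of these 8 markers 3 rose and 1 fell. Tcf4, which was not called, makes most of that sum, at 55.2 to 61.8 CPM in WT and 61.8 to 67.6 CPM in KO libraries. Fewer cells of a type and less RNA per cell cannot be told apart in such bulk samples. By Xist and Y-linked counts WT_341, KO_339 and KO_340 were male and the other 3 libraries female.

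Of the 33 members, 6 were lower in KO libraries and 0 higher when p-values from edgeR's quasi-likelihood fit were adjusted by Benjamini-Hochberg over 15742 genes, with a threshold of 0.05. Over all genes tested 19.9% were called lower and 16.0% higher, so the 18.2% of members called lower is near the background. The members' median log2 change was -0.19 (all genes tested: 0.01), with 25 below and 8 above 0. DESeq2 called 6 lower and 1 higher. Every KO library lay below every WT library for 7 members (21.2%, against 28.4% of all genes tested), and every KO library lay above every WT library for 0 members (25.6% of all genes tested). The other 26 overlapped between genotypes.

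**Figure D1:**
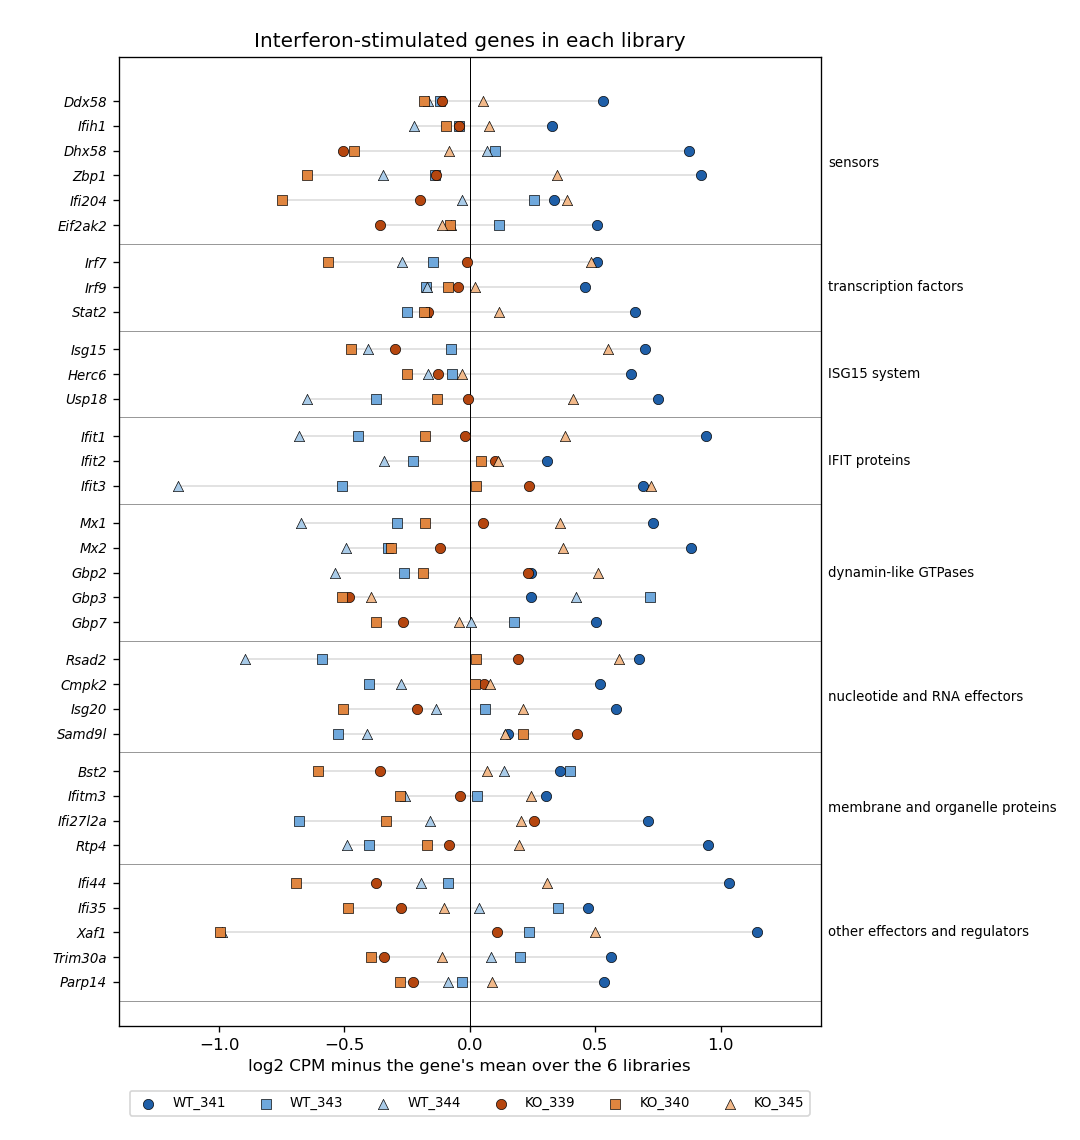
Level of the 33 interferon-stimulated genes in each library, as log2 CPM minus the gene's mean over the 6 libraries, grouped by role. Blue symbols are WT and orange symbols KO libraries, and WT_341 (dark blue circle) is the highest of the 6 libraries for 27 of the 33 genes.

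Mice of the same genotype differed in the level of nearly the whole group. WT_341 held the highest level of the 3 WT libraries for 31 of 33 members and of all 6 libraries for 27 (81.8%), whereas it was the highest of 6 for 13.9% of all genes tested. Its level was a median of 1.64 times the mean of WT_343 and WT_344 over the members (0.792 for Gbp3 to 2.83 for Ifit1), against a median of 0.958 over all genes. This ratio was over 1.5 for 24 members and for 12.1% of all genes. Among KO libraries, KO_345 was the highest for 30 of 33 members (37.8% of all genes) and KO_340 the lowest for 30 (32.6% of all genes). KO_345 stood at a median of 1.32 times the mean of the other 2 KO libraries, with 0.997 over all genes. The mouse with the highest levels was thus male in WT and female in KO. WT_341 is the only male WT library and KO_345 the only female KO library, so in both genotypes sex and mouse cannot be told apart. WT_341 also held more of the neutrophil markers (39640 CPM) than WT_343 (12664 CPM) and WT_344 (23261 CPM). Among KO libraries KO_345 held the least of them (47331 CPM), with 61942 CPM in KO_339 and 47982 CPM in KO_340. Macrophage markers were low in WT_341. Without Vcam1, which makes most of their sum and was left out after the values were seen, 8 macrophage markers summed to 28.3 CPM in WT_341, 196 CPM in WT_343 and 194 CPM in WT_344, and to 141, 46.8 and 195 CPM in KO_339, KO_340 and KO_345. C1qa, a complement gene of macrophages, was at 4.49 CPM in WT_341 and 56.4 and 53.5 CPM in the other WT libraries. The part of these cells in the pattern was not tested.

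Ifit1, whose protein binds viral RNA that lacks the host cap structure, was at 59.1, 22.6 and 19.2 CPM in WT_341, WT_343 and WT_344 and at 30.3, 27.2 and 40.05 CPM in KO_339, KO_340 and KO_345. The KO libraries thus lay inside the range of the WT libraries, and the log2 change was -0.05 ± 0.41 (SE, adjusted p = 0.936 in edgeR's test). Rsad2, which encodes viperin, an enzyme that makes a chain-terminating nucleotide, was at 75.3, 31.4 and 25.3 CPM in WT and 54.0, 48.0 and 71.4 CPM in KO libraries in the same order. Again 1 WT library was above and the others below every KO library (log2 change 0.39 ± 0.39). Usp18, which encodes the protease that removes ISG15 from proteins and blocks the interferon receptor, was at 52.3, 23.9 and 19.8 CPM in WT and 30.9, 28.4 and 41.3 CPM in KO libraries (log2 change 0.07 ± 0.35). Isg15, the ubiquitin-like modifier itself, was high in 1 mouse of each genotype, with 35.2 CPM in WT_341 and 31.7 CPM in KO_345, and between 15.6 and 20.5 CPM in the other 4 libraries. Herc6, which encodes the main ligase for ISG15 in the mouse, was at 85.9 CPM in WT_341 and 46.2 to 53.8 CPM elsewhere.

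**Figure D2:**
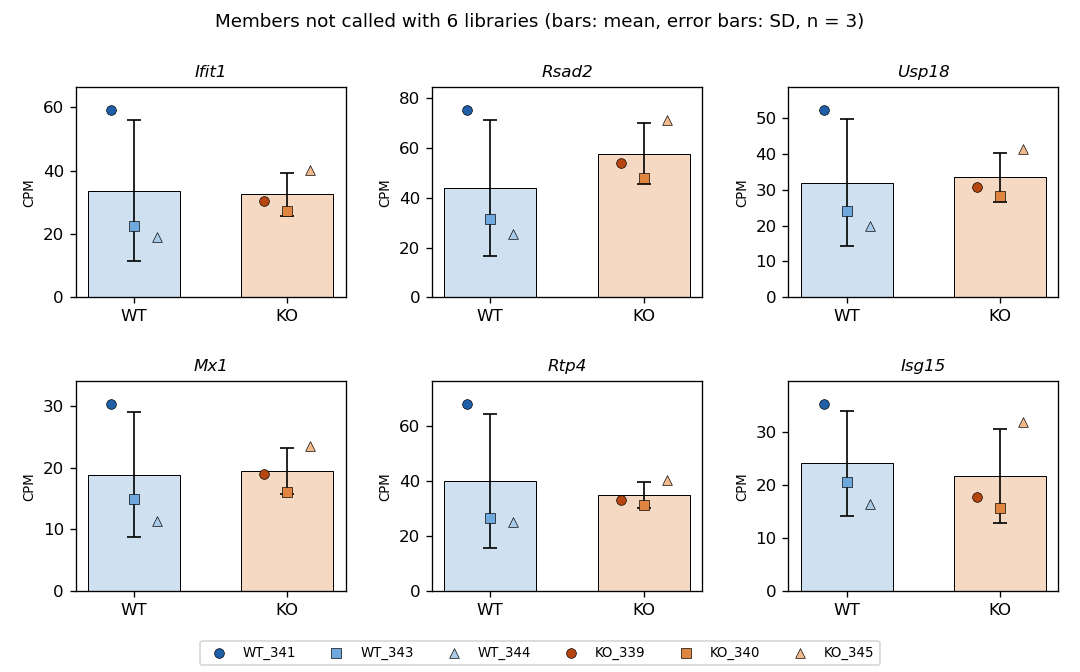
CPM of 6 members that were not called with all 6 libraries, in each library (symbols), with the mean (bars) and SD (error bars) of 3 mice per genotype. In all 6 panels WT_341 is the highest library, and for Ifit1, Rsad2, Usp18, Mx1 and Rtp4 the other 2 WT libraries lie below every KO library.

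With WT_341 left out, which leaves 2 WT libraries, the balance of the members turned. WT_341 was singled out for its high member levels. A rise of most members' changes thus follows from that choice and is no separate evidence of a genotype difference. In that fit 9 members (27.3%) were higher and 5 (15.2%) lower in KO libraries, beside 22.1% higher and 26.6% lower over its 16185 genes. The members' median log2 change went from -0.19 to 0.13. The 9 were Ifit1, Ifit2, Ifit3, Rsad2, Cmpk2, Mx1, Usp18, Rtp4 and Samd9l, with log2 changes from 0.36 (Ifit2) to 1.15 (Ifit3). Of these, Ifit1 (-0.05 to 0.63, adjusted p = 0.0237 in edgeR's test) and Rtp4 (-0.19 to 0.42, adjusted p = 0.0221) changed sign. In all, 13 members went from below to above 0. The 5 lower were Gbp3, Gbp7, Dhx58, Ifi35 and Trim30a, which were lower with all 6 libraries too.

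**Figure D3:**
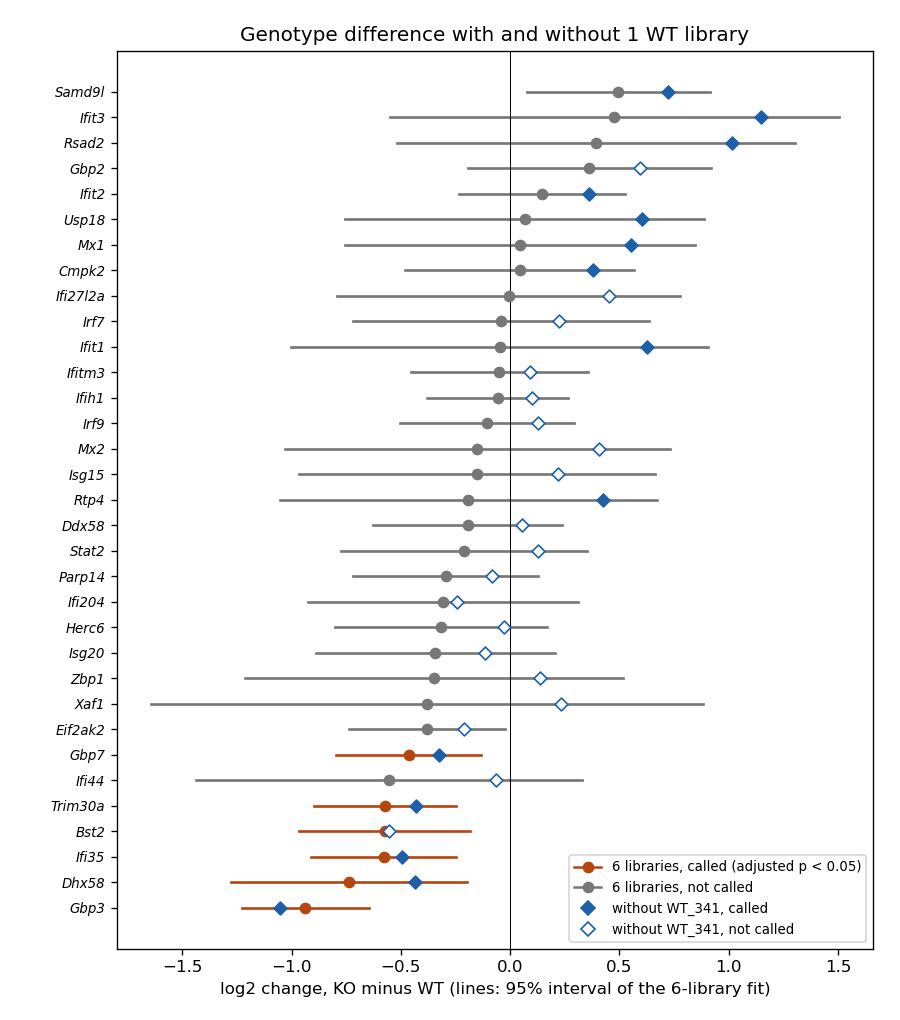
Log2 change between genotypes (KO minus WT) of the 33 genes with the 95% interval of the 6-library fit (circles and lines, orange where the adjusted p is below 0.05), and the same change without WT_341 (diamonds, filled where called). With 6 libraries 6 genes are called lower, and without WT_341 5 are lower and 9 higher. WT_341 was singled out for its high member levels, so a shift to the right follows for most genes.

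The 6 genes called lower with all libraries come from several roles. Gbp3, which encodes a guanylate-binding protein, a dynamin-like GTPase that acts against intracellular pathogens, was at 77.4, 108 and 87.7 CPM in WT and 46.9, 45.9 and 49.7 CPM in KO libraries. The KO libraries were close together and all well below the lowest WT library, and WT_341 was the lowest WT library here, unlike for most members. It fell to 0.522 of the WT level (log2 change -0.94 ± 0.12, SE, adjusted p = 0.00378 in edgeR's test), and Gbp3 was called in each of 14 alternative settings. Gbp7, from the same cluster on chromosome 3 (142530342 to 142550149, GRCm38, with Gbp3 at 142560026 to 142573209), was at 171, 136 and 121 CPM in WT and 100.2, 93.1 and 117 CPM in KO libraries. Its KO_345 value came close to WT_344 (log2 change -0.46 ± 0.14, adjusted p = 0.0393), and annotated exons of the pseudogene Gm43802 overlap its exons. Gbp2, in the same cluster (142620602 to 142638008), was at 27.7, 19.5 and 16.1 CPM in WT and 27.5, 20.6 and 33.4 CPM in KO libraries, which overlapped (log2 change 0.36 ± 0.24, adjusted p = 0.258). The ratio of Gbp3 to Gbp2 counts within a library, chosen after the values were seen, was 2.79 to 5.52 in WT and 1.49 to 2.23 in KO libraries. It does not depend on library scaling. Reads of these related genes could be split between them in counting.

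Trim30a, an interferon-induced TRIM protein gene that restrains inflammatory signalling, was at 234, 182 and 168 CPM in WT and 125, 120.5 and 147 CPM in KO libraries. The groups did not overlap (log2 change -0.57 ± 0.14, SE, adjusted p = 0.0191 in edgeR's test). Ifi35, which encodes an interferon-induced leucine zipper protein, was at 61.7, 56.8 and 45.7 CPM in WT and 36.8, 31.7 and 41.4 CPM in KO libraries. WT_344 and KO_345 were the closest across genotypes (log2 change -0.58 ± 0.14, adjusted p = 0.0197). The antisense gene Gm11626 overlaps its exons. Bst2, which encodes tetherin, the protein that holds budding virus on the cell surface, was at 107, 109.8 and 91.6 CPM in WT and 65.0, 54.8 and 87.3 CPM in KO libraries. KO_345 nearly reached WT_344 (log2 change -0.57 ± 0.17, adjusted p = 0.0341).

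Dhx58, which encodes LGP2, the RIG-I-like receptor without signalling domains, was at 99.99, 58.5 and 57.2 CPM in WT and 38.4, 39.6 and 51.5 CPM in KO libraries. It fell to 0.600 of the WT level, with WT_341 far above the other WT libraries (log2 change -0.74 ± 0.23, adjusted p = 0.0427 in edgeR's test). Ddx58, which encodes RIG-I, overlapped between genotypes, at 161, 102 and 99.1 CPM in WT and 103, 97.9 and 115 CPM in KO libraries. So did Ifih1, which encodes MDA5, the sensor of long RNA duplexes such as poly(I:C), at 99.7 to 146 CPM in WT and 109 to 123 CPM in KO libraries. The log2 changes were -0.19 ± 0.19 and -0.06 ± 0.14. The antisense gene Dhx58os overlaps exons of Dhx58. The ratio of Dhx58 to Ddx58 counts, also chosen after the values were seen, was 0.571 to 0.623 in WT and 0.372 to 0.447 in KO libraries.

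**Figure D4:**
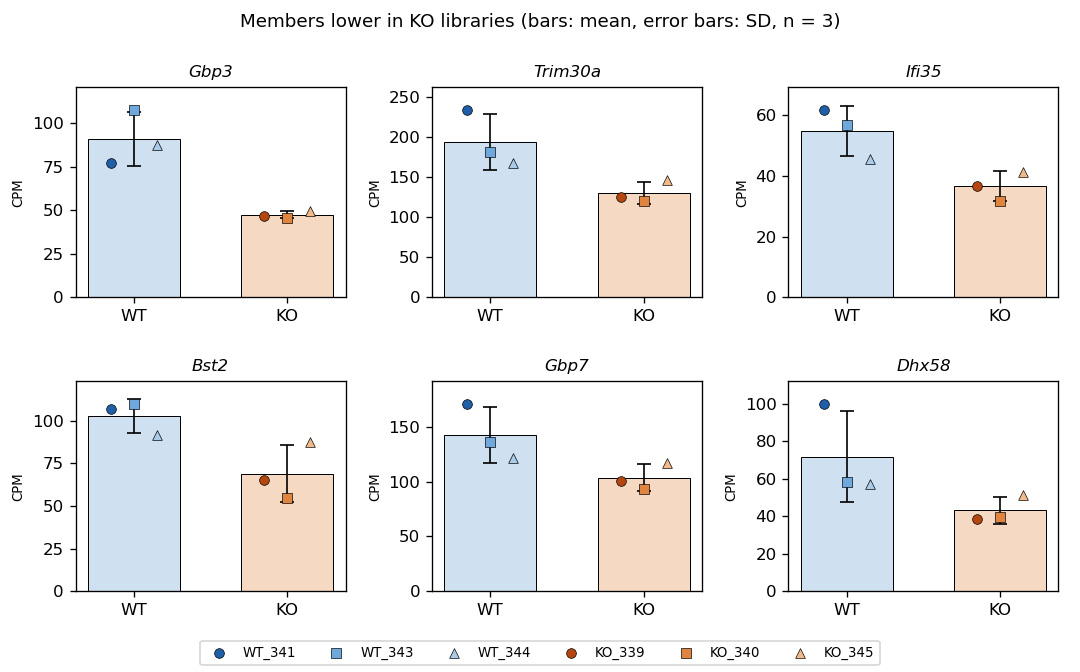
CPM of the 6 members called lower, in each library (symbols), with the mean (bars) and SD (error bars) of 3 mice per genotype. Every KO library lies below every WT library in each panel, by a wide margin for Gbp3 and by a narrow one for Bst2.

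The calls differed in how far they depended on single choices. All 6 stayed below 0 in all 14 alternatives. Scaling by upper-quartile factors moved the median log2 change of all genes from 0.01 to 0.15, with 22.0% of all genes called higher and 12.3% lower, and then only Gbp3 of the 6 was called. Leaving out KO_339 or KO_340 also left 1 member called lower, Gbp3 in each case. Bst2 lost its call in 9 alternatives, including without WT_341 (log2 change -0.56, adjusted p = 0.0728 in edgeR's test), Gbp7 in 8, Dhx58 in 10, Ifi35 in 4 and Trim30a in 3. With a mature neutrophil term in the fit Gbp3 (log2 change -0.62) and Trim30a (-0.77) were called lower. Bst2 (-0.51), Gbp7 (-0.64), Ifi35 (-0.64) and Dhx58 (-1.13) were not. The median of the members in that fit was -0.57. The covariate was higher in every KO library than in every WT library and so overlaps with genotype.

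Among the other sensors, Eif2ak2, which encodes PKR, the kinase that stops translation on viral RNA, was at 176, 134 and 117 CPM in WT and 96.5, 117 and 115 CPM in KO libraries. KO_340 lay just under WT_344, so the groups did not overlap, and the gene did not pass (log2 change -0.38 ± 0.15, adjusted p = 0.0880 in edgeR's test). Zbp1, which senses left-handed nucleic acid and can start cell death, ranged from 21.6 to 52.0 CPM in WT and 17.5 to 34.9 CPM in KO libraries. Ifi204, a member of the DNA-sensing p200 family, ranged from 20.9 to 27.0 CPM in WT and 12.7 to 28.0 CPM in KO libraries. Reads of its close relatives in that family could be shared with it.

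The transcription factor genes overlapped between genotypes. Irf7, the master regulator of type I interferon genes, showed the same mouse pattern as Isg15, at 162 CPM in WT_341 and 159.6 CPM in KO_345 and between 77.2 and 114 CPM elsewhere. The ISGF3 subunit genes Irf9 and Stat2 were at 106 and 64.3 CPM in WT_341, while the other 5 libraries lay between 68.1 and 78.1 CPM for Irf9 and between 34.3 and 44.2 CPM for Stat2. The 95% intervals of the log2 change were -0.72 to 0.64 for Irf7, -0.51 to 0.29 for Irf9 and -0.77 to 0.35 for Stat2, so differences of these sizes are not shown to be absent. Exons of Phrf1 and Rnf31 overlap those of Irf7 and Irf9.

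Ifit2 and Ifit3 lie beside Ifit1 on chromosome 19 and encode partners in the same RNA-binding complex. Ifit2 was at 82.1, 56.8 and 52.3 CPM in WT and 71.2, 68.5 and 71.8 CPM in KO libraries, and Ifit3 at 18.6, 8.09 and 5.15 CPM in WT and 13.6, 11.7 and 19.0 CPM in KO libraries. In both, the KO libraries were above WT_343 and WT_344 and near WT_341 or below it, except that KO_345 passed WT_341 for Ifit3. Ifit3b, a near copy of Ifit3, is not a row of the table used here, so reads that fit both genes could have been dropped or counted for Ifit3. Mx1 encodes an antiviral GTPase. It was at 30.3, 14.9 and 11.4 CPM in WT and 18.9, 16.1 and 23.4 CPM in KO libraries. C57BL/6 mice carry a defective Mx1 allele, so these transcripts are not a measure of functional protein.

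Samd9l, a brake on translation and cell growth that is known from inherited marrow failure, had the highest log2 change of the members. It was at 296, 185 and 201 CPM in WT and 359, 309 and 294 CPM in KO libraries, so only KO_345 lay (narrowly) below WT_341. It did not pass (log2 change 0.50 ± 0.18, adjusted p = 0.0658 in edgeR's test), and passed as higher with upper-quartile factors, with library totals only, with DESeq2, with sex as a covariate and without WT_341. Cmpk2, which makes nucleotides in mitochondria and lies beside Rsad2 on chromosome 12, was within 92.8 to 96.6 CPM in KO libraries and at 131, 69.2 and 75.6 CPM in WT libraries. Isg20, an exonuclease gene, ranged from 20.4 to 33.6 CPM in WT and 15.8 to 25.9 CPM in KO libraries.

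The membrane protein gene Ifitm3, whose product blocks the fusion of virus with endosomes, was at 265, 219 and 179.6 CPM in WT and 209, 177 and 255 CPM in KO libraries (log2 change -0.05 ± 0.17). Ifi27l2a was at 54.6, 20.8 and 29.9 CPM in WT and 26.5 to 39.8 CPM in KO libraries. Rtp4, which encodes a transporter-like protein, was at 68.0, 26.6 and 25.1 CPM in WT and 33.3, 31.2 and 40.3 CPM in KO libraries. Ifi44 (40.2 CPM in WT_341, 12.1 to 24.4 CPM elsewhere), Xaf1, an antagonist of inhibitors of apoptosis (80.5 CPM in WT_341, 18.2 to 51.4 CPM elsewhere), and the ADP-ribosyltransferase gene Parp14 (223 CPM in WT_341, 127 to 164 CPM elsewhere) had their highest level in the same WT mouse. None of these 6 passed.

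Per kilobase of annotated exon, the same 3 members led in both genotypes. Mean levels in WT libraries were 326 CPM per kilobase for Ifitm3, 114 for Bst2 and 75.9 for Ifi27l2a, and in KO libraries 315, 76.4 and 75.5. Trim30a was the next in WT (47.3 CPM per kilobase) and Samd9l in KO libraries (59.1). Mx2 was the lowest in both, at 2.37 CPM per kilobase in WT and 2.14 in KO libraries. Gbp3 moved from the tenth place in WT (27.8 CPM per kilobase) to place 16 in KO libraries (14.5).

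Upstream of the members, almost no interferon transcripts were counted. Of 12 interferon ligand genes 10 had too few reads to be tested. Ifnb1 had 0 to 6 reads per library, Ifna4 and Ifna6 at most 1, and Ifnl2 and Ifnl3 are listed at 0 in all libraries. Ifng, the type II interferon made by T and NK cells, rose from 0.130, 0.437 and 0.213 CPM in WT to 0.919, 0.455 and 1.51 CPM in KO libraries (log2 change 1.87 ± 0.57, adjusted p = 0.0391 in edgeR's test). KO_340 was barely above WT_343, and the call was lost without WT_341, WT_344, KO_339 or KO_345. The 10 T and NK cell markers found in the table summed to 274 to 312 CPM in WT and 225 to 243 CPM in KO libraries, none at 0. Nkg7 makes most of that sum and was the 1 marker that fell. The other 9, also summed after the values were seen, all had log2 changes above 0 (4 rose), and summed to 13.6 to 20.1 CPM in WT and 24.1 to 61.6 CPM in KO libraries. KO_345, with the highest Ifng level, also had the highest of these sums, and the part of these cells in the Ifng value was not tested.

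Of 10 receptor and relay genes, 2 rose and 3 fell (20% and 30%, against 16.0% and 19.9% of all genes tested). Tyk2, the kinase on IFNAR1, fell from 91.7, 107 and 108 CPM in WT to 66.4, 68.5 and 72.1 CPM in KO libraries (log2 change -0.57 ± 0.09, adjusted p = 0.00515 in edgeR's test). This call held in all 14 alternatives. The receptor genes Ifnar1 (log2 change -0.25 ± 0.07) and Ifnar2 (-0.23 ± 0.07) fell by less, and their calls were lost in 10 and 9 alternatives, upper-quartile factors among them. Jak1 rose (0.23 ± 0.07; lost in 8 alternatives), as did Ifnlr1, a receptor chain for type III interferon, from 20.8, 6.00 and 11.6 CPM in WT to 38.5, 32.1 and 31.4 CPM in KO libraries (lost in 5 alternatives). Ifngr1, Ifngr2, Stat3 and Jak2 did not pass, with log2 changes of -0.23, -0.08, -0.08 and 0.15, nor did the ligand gene Ifnk (0.05).

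Of 16 genes of the sensing pathways that lead to interferon, 3 rose and 4 fell (18.8% and 25%), shares near those over all genes tested (16.0% and 19.9%). Tmem173, which encodes STING, the adaptor for cytosolic DNA, fell from 50.1, 58.2 and 55.5 CPM in WT to 30.9, 29.6 and 28.4 CPM in KO libraries (log2 change -0.88 ± 0.09, adjusted p = 0.00223 in edgeR's test). Its groups were far apart, and the DNA sensor gene Mb21d1 (cGAS) fell as well (-0.30 ± 0.08). The kinase gene Ikbke fell from 122, 129 and 123 CPM to 85.5, 90.2 and 81.7 CPM (-0.54 ± 0.07, adjusted p = 0.00368), and Irf3, the factor that it activates, by 0.34 on the log2 scale. Tlr3, the endosomal receptor for poly(I:C), rose from 1.61, 2.19 and 2.24 CPM to 3.77, 3.54 and 5.18 CPM (1.05 ± 0.22, adjusted p = 0.0132), Tlr7 rose by 0.63 and Nlrx1 by 0.27 on the log2 scale. The calls of Tmem173 and Ikbke held in all 14 alternatives, while those of Irf3 and of Mb21d1 and Nlrx1 were lost in 10, 7 and 7, and that of Tlr7 with the neutrophil covariate. The call of Tlr3 held in all 14 as well. Of the 8 monocyte markers 5 fell in the same libraries, and the part of those cells was not tested.

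Of 14 feedback genes, 2 rose and 2 fell (14.3% each, against 16.0% and 19.9% of all genes tested). Socs1, the inhibitor of JAK kinases, was at 1.99, 1.89 and 1.76 CPM in WT and 4.30, 5.18 and 4.00 CPM in KO libraries, with a wide gap between genotypes (log2 change 1.26 ± 0.17, adjusted p = 0.00408 in edgeR's test, called in all 14 alternatives). Cish, of the same family, rose by 1.07 on the log2 scale, and its call was lost in 7 alternatives, without WT_341 among them. Ptpn6 (log2 change -0.29) and Pias1 (-0.25) fell, and lost their calls in 9 and 7 alternatives. Upper-quartile factors gave 3 higher and 0 lower in this list, 3 higher and 1 lower in the receptor and relay list and 5 higher and 2 lower in the sensing list, beside 22.0% higher and 12.3% lower over all genes.

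**Figure D5:**
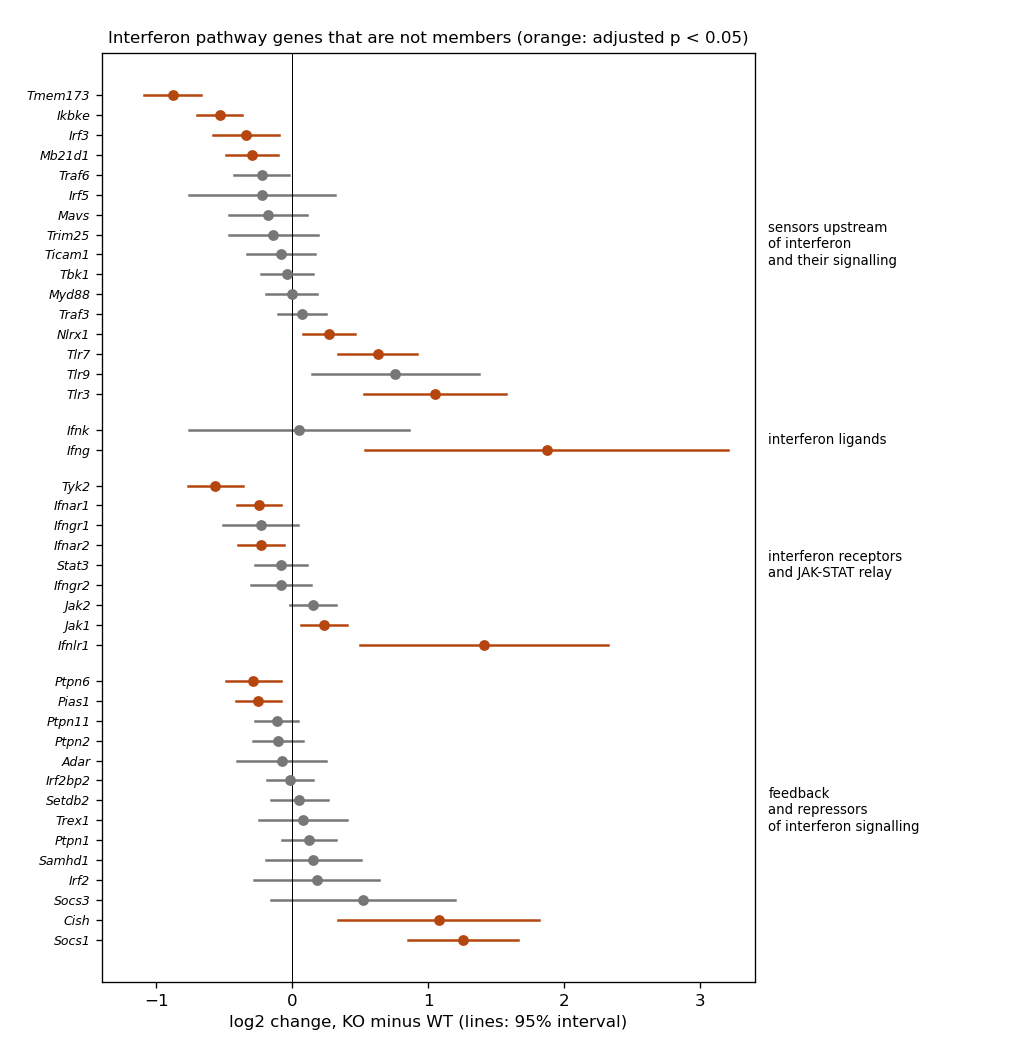
Log2 change between genotypes (KO minus WT, points) with 95% intervals (lines) for genes upstream and downstream of the interferon receptor that are not members. Orange marks an adjusted p below 0.05, with Tmem173, Ikbke and Tyk2 lower and Tlr3, Ifng, Ifnlr1 and Socs1 among the higher genes.

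A further list of 81 tested interferon-stimulated genes outside the members gave 17 lower and 1 higher, Cd274 (21.0% and 1.23%, against 19.9% and 16.0% of all genes tested), with a median log2 change of -0.15. WT_341 was the highest of the 6 libraries for 41 of the 81. Mlkl, the executor of necroptosis, fell from 61.8, 66.1 and 62.6 CPM in WT to 35.2, 34.6 and 34.1 CPM in KO libraries (log2 change -0.87 ± 0.07, adjusted p = 0.00130 in edgeR's test). Irf8, a factor of monocyte and dendritic cell fate, fell from 102, 77.9 and 118 CPM to 37.3, 38.6 and 45.1 CPM (-1.30 ± 0.16, adjusted p = 0.00327), beside the fall of the monocyte markers. The monocyte marker Ly6c2 is itself among the genes called lower in this list. All 3 immunoproteasome genes, Psmb8 (-0.54), Psmb9 (-0.51) and Psmb10 (-0.71), fell, as did Pnpt1 (-0.66), an RNA nuclease of mitochondria, Tor3a (-0.56) and Ifi27 (-0.54). The calls of Mlkl, Irf8, Psmb8, Psmb9, Pnpt1 and Tor3a held in all 14 alternatives. Without WT_341 the list gave 20 lower (24.7%, against 26.6% of all genes) and 10 higher (12.3%, against 22.1%). With upper-quartile factors it gave 9 lower (11.1%, against 12.3%) and 2 higher (2.47%, against 22.0%). The shares called lower were thus near the background in these fits, and the shares called higher were below it. With the mature neutrophil covariate the list gave 9 lower (11.1%, against 7.33% of all genes) and 0 higher (against 4.45%).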

How the data were processed

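RNA of Kit-positive bone marrow cells of 6 mice was sequenced with a strand-specific messenger RNA kit, per the labels. The authors deposited raw read counts per gene symbol, not normalized. FastQC, Trimmomatic, STAR and HTSeq and the build mm10 are named in the submitters' processing notes, without versions; annotation and strand setting: not given in the sources used here. Reads of overlapping genes may therefore be mixed. Groups came from the genotype labels. Counts were tested with edgeR 4.0.16 (R 4.3.3): filterByExpr defaults (minimum count 10, minimum total 15), TMM factors, robust glmQLFit and glmQLFTest over 15742 genes with a threshold of 0.05. The test was tried on simulated counts. Alternatives (14) were upper-quartile factors, library totals, DESeq2 1.42.0, limma-voom 3.58.1, 2 other filters, covariates for sex and for the mean log2 CPM of mature neutrophil markers, and each library left out. Positions and exon lengths are from GENCODE M21 on GRCm38, 1-based, and promoters from RefSeq. Members and lists, and the genes named from them (of the ligand, receptor and relay lists all tested genes, of the others up to 8 with the smallest adjusted p), were chosen with earlier results of these data known. Marker lists for macrophages, B cells, erythroid cells and stroma were summed too. A gene of the receptor and relay list is not reported here.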

Additional observations from a re-analysis of the deposited data

How the results depend on the processing

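The count of members called lower (6) was 1 with upper-quartile factors, 3 with library totals only, 3 when genes had to reach 1 CPM in 3 libraries, 2 with the mature neutrophil covariate, and 1 to 5 with single libraries left out (1 without KO_339 or KO_340, 3 without WT_343). The count called higher (0) was 1 with upper-quartile factors, library totals only, DESeq2 or sex as a covariate, in each case Samd9l, and 0 to 9 with single libraries left out, 9 being without WT_341. Over all genes 5659 were called, 1854 with the neutrophil covariate and 2302 (without KO_339) to 7879 (without WT_341) with single libraries left out. The members' median log2 change ranged from -0.57 (neutrophil covariate) to 0.13 (without WT_341). Without WT_341, Ifit1 (0.63) and Rtp4 (0.42) were called higher after being below 0, and their lowest values with single libraries left out were -0.33 and -0.44, both without WT_344. The causes of these shifts were not tested. With 3 mice a group the median SE of a member's log2 change was 0.23 (0.15 over all genes), and 19 of the 27 members not called had 95% intervals within 2-fold either way. Every member had at least 748 reads in each library.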

Other observations

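Of the other marker lists, B cell markers summed to 94.4, 26.0 and 38.6 CPM in WT_341, WT_343 and WT_344 and to 79.0, 53.9 and 92.0 CPM in KO_339, KO_340 and KO_345. In both genotypes the library with the highest B cell sum was also the one with the highest level of most members, WT_341 and KO_345. Erythroid markers summed to 315 to 405 CPM in WT and 237 to 249 CPM in KO libraries, with Hbb-bt and Hba-a1 at 0 in all libraries. Tfrc makes most of that sum, at 284 to 389 CPM in WT and 214 to 219 CPM in KO libraries. It was the 1 erythroid marker of 7 tested that fell. Of these 7, 6 had log2 changes below 0 with all libraries, and 6 above 0 without WT_341. Stromal and endothelial markers summed to 96.3 to 108 CPM in WT and 117 to 195 CPM in KO libraries. Without WT_341, 6 of the 8 B cell markers were called higher in KO libraries, against 0 with all libraries. The part of any of these cells in the members' levels was not tested.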
